A study of Mus musculus with 31 samples.

Results

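The genes described here are those of blood coagulation and fibrinolysis, 32 symbols from the contact factors to the plasminogen system, in mice given lipopolysaccharide (LPS), the bacterial endotoxin. The members were chosen by name, and every probe annotated to one of them was followed. Of the 32 symbols 31 had a probe on the array and Cpb2, the gene of a carboxypeptidase that slows fibrinolysis, had none. The 31 genes carried 49 of the 25697 probes, 20 of them with 1 probe, 4 with 2 and 7 with 3. All animals were male C57BL/6J mice aged 20 to 30 weeks, and all had received LPS, so no value compares LPS with its absence. Together with LPS they received vehicle, IVIg, which is IgG pooled from human donors, or modIVIg, a form of it whose modification the labels do not describe. Each of the 3 groups had 4 liver arrays. For kidney the vehicle group had 3 arrays and each other group 4. For circulating leukocytes (blood) 3 arrays came from vehicle, 3 from IVIg and 1 from modIVIg. A further blood modIVIg array, replicate 2, held background only and was left out.

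Coagulation runs as a chain of serine proteases. Contact factors or tissue factor start it, factors VIII, IX, X and V carry it to thrombin, and thrombin turns fibrinogen into fibrin that factor XIII crosslinks. Antithrombin, heparin cofactor II, the protein C system and tissue factor pathway inhibitor hold it back, and plasmin, released from plasminogen, dissolves the clot. Hepatocytes make most of these proteins, liver sinusoidal endothelium makes factor VIII, and endothelium and megakaryocytes make von Willebrand factor.

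Promoter windows of 7 members are shown because the results below turn on them. Klkb1, Serpind1 and F8 passed the test in liver, F13b and F11 had separate groups there, and Fga and Fgg were detected on every liver and kidney vehicle array. Each window is the RefSeq sequence of build GRCm38.p6 from 250 bases before to 50 bases after the gene's start, read 5′ to 3′ on the gene's strand. Capitals mark matches to 4 motifs searched on both strands, which were TTGNNNCAA (C/EBP-type), CTGGGAA (the IL-6 response element of fibrinogen genes), CAAAGTCCA (HNF4-type) and GTTAATNAT (HNF1-type).
Klkb1 (chr8:45294786-45295085, reverse strand): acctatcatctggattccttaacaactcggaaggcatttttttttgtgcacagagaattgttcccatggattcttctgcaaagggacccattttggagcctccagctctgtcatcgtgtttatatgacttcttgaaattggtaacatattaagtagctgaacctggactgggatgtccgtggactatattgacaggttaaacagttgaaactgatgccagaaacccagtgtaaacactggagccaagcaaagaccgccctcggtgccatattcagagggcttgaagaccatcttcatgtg
F11 (chr8:45261982-45262281, reverse strand): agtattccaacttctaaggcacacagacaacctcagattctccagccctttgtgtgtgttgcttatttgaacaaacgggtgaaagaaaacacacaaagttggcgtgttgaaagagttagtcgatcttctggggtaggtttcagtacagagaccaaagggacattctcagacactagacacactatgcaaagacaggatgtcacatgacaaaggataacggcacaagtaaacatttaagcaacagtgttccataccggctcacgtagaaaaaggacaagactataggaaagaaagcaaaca
Serpind1 (chr16:17331121-17331420, forward strand): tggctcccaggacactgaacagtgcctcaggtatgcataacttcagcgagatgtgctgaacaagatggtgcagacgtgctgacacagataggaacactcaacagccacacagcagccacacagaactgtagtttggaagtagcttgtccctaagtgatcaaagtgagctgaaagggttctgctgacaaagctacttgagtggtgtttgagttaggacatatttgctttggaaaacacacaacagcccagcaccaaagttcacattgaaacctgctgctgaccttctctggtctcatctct
F8 (chrX:75379992-75380291, reverse strand): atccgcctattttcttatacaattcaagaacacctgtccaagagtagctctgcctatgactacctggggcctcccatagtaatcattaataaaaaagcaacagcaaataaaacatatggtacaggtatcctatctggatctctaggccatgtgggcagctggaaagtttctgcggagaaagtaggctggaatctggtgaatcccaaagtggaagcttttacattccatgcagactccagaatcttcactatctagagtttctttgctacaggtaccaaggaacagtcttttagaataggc
F13b (chr1:139501457-139501756, forward strand): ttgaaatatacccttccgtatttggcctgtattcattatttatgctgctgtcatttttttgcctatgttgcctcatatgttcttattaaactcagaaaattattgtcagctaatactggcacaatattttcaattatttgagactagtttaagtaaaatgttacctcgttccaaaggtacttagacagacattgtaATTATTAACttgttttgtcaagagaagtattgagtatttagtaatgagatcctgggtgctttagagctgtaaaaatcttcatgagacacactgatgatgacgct
Fga (chr3:83025903-83026202, forward strand): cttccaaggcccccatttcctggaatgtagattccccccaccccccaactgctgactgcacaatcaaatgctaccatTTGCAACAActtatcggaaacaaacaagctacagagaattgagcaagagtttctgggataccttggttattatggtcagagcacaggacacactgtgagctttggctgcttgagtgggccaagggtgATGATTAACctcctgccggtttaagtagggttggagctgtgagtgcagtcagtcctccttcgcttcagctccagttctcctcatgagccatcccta
Fgg (chr3:83007474-83007773, forward strand): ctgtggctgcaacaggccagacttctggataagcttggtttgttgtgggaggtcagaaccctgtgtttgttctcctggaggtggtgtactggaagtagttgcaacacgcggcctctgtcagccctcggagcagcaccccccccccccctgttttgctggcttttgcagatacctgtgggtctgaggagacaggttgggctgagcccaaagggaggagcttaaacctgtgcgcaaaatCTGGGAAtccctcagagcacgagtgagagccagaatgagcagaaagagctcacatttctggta

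In these letters the windows of Klkb1, F11, Serpind1 and F8 held none of the 4 motifs. The F13b window held GTTAATNAT on the reverse strand at bases 197 to 205, and the Fga window held it on the reverse strand at bases 205 to 213. Fga also held TTGNNNCAA at bases 78 to 86, and Fgg held CTGGGAA at bases 238 to 244, just before the gene's start. RefSeq windows were used for 25 members, in 27 entries, and not for Kng1, Plg, Plat, Plau, Proc, Thbd and Vwf. The count over all windows included a chromosome that was left out for the members. TTGNNNCAA stood in 6 of the 27 member windows (Fga, F10, F13a1, F9 and both Tfpi entries) and in 5.82% of all 32851 windows. CTGGGAA stood in 4 member windows (Tfpi, Fgg, Fgb and F9) and in 11.1% of all. GTTAATNAT stood in 2 and in 0.801% of all, and CAAAGTCCA in 0 and in 0.475% of all. No matches of different motifs overlapped in a member window. These are counts of letters and were not tested.

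Levels are log2 of the background-corrected and quantile-normalised bead signal, set within each organ, and a probe counts as detected where its detection p was under 0.01. Levels of different probes are not on 1 scale and are compared only across arrays. Liver arrays detected 31.6% to 35.3% of all probes and kidney arrays 34.8% to 41.2%, but blood arrays only 8.09% to 18.7%. All 10 hepatocyte markers were measured in liver. In kidney 5 of 6 proximal tubule markers were measured, and 6 of 10 hepatocyte markers were too. In blood all 7 platelet and 3 of 3 measured red cell markers were detected on every array beside the neutrophil markers, so the leukocyte samples also held platelet and red cell RNA. In kidney the hepatocyte markers Alb, Cps1 and Tat were detected on no array. The Cps1 probe read 13.24 to 14.31 in liver. The Alb and Tat probes were dim there too, at 6.25 to 7.97 (detected on 10 of 12 liver arrays) and 5.18 to 6.98 (7 of 12). Their absence in kidney therefore says little. In kidney, IVIg replicate 3 had a Cd14 level of 8.11, against 12.88 to 14.60 on the other 10 kidney arrays. Kidney vehicle replicate 2 was highest for the hepatocyte markers Ahsg (8.69, others 4.85 to 5.55), Apoa1 (8.55, others 5.29 to 7.17), Apoa2 (8.55, others 6.35 to 7.64) and Cyp2e1 (15.61, others 15.10 to 15.47). Vtn, not in that list, was high too (6.63, others 4.69 to 5.04). Apoc3 was lowest on this array (8.34, others 8.39 to 9.65), and Ttr (13.72) and Serpina1b (12.27) lay within the range of the others. The same array was the 1 kidney vehicle array that detected F2. Without it 19 of the 21 members below that differed between liver and kidney still did. Liver IVIg replicate 3 had the lowest Cd14 level of its organ, 11.81, against 13.01 to 14.61. The samples are whole tissues or cell mixtures, so fewer cells of a type and less RNA per cell cannot be told apart. All p-values treat each array as a separate animal, which the labels do not state.

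Of the members 25 were kept as measured in liver, 16 in kidney and 8 in blood. F3, the gene of tissue factor, and Plat, tissue plasminogen activator, were detected on no array of any organ. Procr, the endothelial protein C receptor, was detected on 1 liver and 1 kidney array and was kept in no organ. The liver filter also left out F13a1, Plau and Vwf.

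Most members were higher in liver than in kidney. With liver and kidney normalised together, 27 members were measured in either organ and 21 differed between the vehicle groups (limma, Benjamini-Hochberg adjusted p under 0.05), against 57.1% of all 8958 features. Of the 27 members 20 were higher in liver, against 24.7% of all features, and 1 was higher in kidney. The median liver-minus-kidney difference was 1.73 over the members and -0.05 over all features. Features kept in either organ were compared. F2, F5, F7, F9, F11, F12, Klkb1, Fgb, Serpinc1, Serpind1 and Plg entered through the liver arrays alone. F13a1 and Plau entered through the kidney arrays alone. For each of these the filter favoured a higher value in the organ that let it in, in the counts and in the median. The labels do not say whether the organs were processed together.

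Kidney vehicle arrays did not detect 10 of the members that were higher in liver, so their folds are lower bounds, set against the lowest signal that counted as detected. Plasminogen (Plg) was at least 306-fold higher in liver, factor IX (F9) at least 176-fold, and the contact factors XI (F11) and XII (F12) at least 99.7-fold and 86.7-fold. Antithrombin (Serpinc1) was at least 44-fold higher, heparin cofactor II (Serpind1) at least 32.7-fold and plasma prekallikrein (Klkb1) at least 22.8-fold. The cofactor factor V (F5) was at least 10.7-fold and factor VII (F7), the partner of tissue factor, at least 7.44-fold higher. The fibrinogen beta chain (Fgb) gave only a bound of 1.39-fold, because its probe was dim in liver too and was detected on 2 of 4 vehicle arrays. Factor X (F10) and histidine-rich glycoprotein (Hrg) passed as higher in liver, with limma adjusted p of 3.59e-15 and 3.95e-11. Each was detected on 2 of 3 kidney vehicle arrays. The fitted 97.6-fold and 55.3-fold thus rest partly on undetected values and are not measured folds. The kidney level of Hrg also divided by replicate number, as given below. Prothrombin (F2) passed as higher in liver too, but it was detected on only 1 of 3 kidney vehicle arrays and no fold is given.

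Fga, F13b, Fgg, Proc, Serpinf2, Pros1 and Kng1 were detected on every vehicle array of both organs. The fibrinogen alpha chain (Fga) read 15.73 ± 0.06 (SD, n = 4) in liver and 15.69 ± 0.06 (SD, n = 3) in kidney on the joint scale, a difference of 0.04 ± 0.20 (SE) with a limma adjusted p of 0.876. Both lie near the top of the scale, so the closeness of these values does not show equal levels. The factor XIII B subunit (F13b), which carries the A subunit in plasma, read 11.50 ± 0.18 (SD, n = 4) in liver and 11.29 ± 0.09 (SD, n = 3) in kidney, with a limma adjusted p of 0.286. The fibrinogen gamma chain (Fgg) was 1.6-fold higher in liver (limma adjusted p = 0.0179), protein C (Proc) 1.75-fold (7.55e-05), alpha-2-antiplasmin (Serpinf2) 1.94-fold (4.17e-06) and protein S (Pros1) 2.58-fold (6.70e-06). Kininogen (Kng1), the carrier of prekallikrein and source of bradykinin, was at least 3.46-fold higher in liver (7.29e-10), a bound because its liver signal was close to the highest on the arrays. The hepatocyte markers Alb, Cps1 and Tat were undetected on the same kidney arrays, but of these only the Cps1 probe was bright in liver. Of the 10 hepatocyte markers 7 were detected on some kidney array. Factor VIII (F8), detected on 3 of 4 liver and 2 of 3 kidney vehicle arrays, was 2.13-fold higher in liver (limma adjusted p = 0.00429). Tissue factor pathway inhibitor (Tfpi), detected on 3 of 4 and 3 of 3, was 1.52-fold higher (0.0355). The F8 and Tfpi folds rest partly on undetected values and are not measured folds. Urokinase (Plau) passed as higher in kidney (limma adjusted p = 0.0042). It was detected on 2 of 3 kidney and 0 of 4 liver vehicle arrays, so no fold is given. F13a1, the thrombin receptor F2r, the urokinase receptor Plaur and thrombomodulin (Thbd) did not pass. The calls of Fgg and Tfpi were not stable. Fgg lost its call without kidney vehicle replicate 2 (limma adjusted p = 0.0548) or 3 (0.0534). Tfpi lost its call without liver vehicle replicate 2, 3 or 4 or any 1 of the 3 kidney vehicle arrays, with adjusted p from 0.0509 to 0.133. Without kidney IVIg replicate 3, Plaur (0.042) and F2r (0.0319) passed, and F2r also passed without liver IVIg replicate 3 (0.0482).

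**Figure D1:**
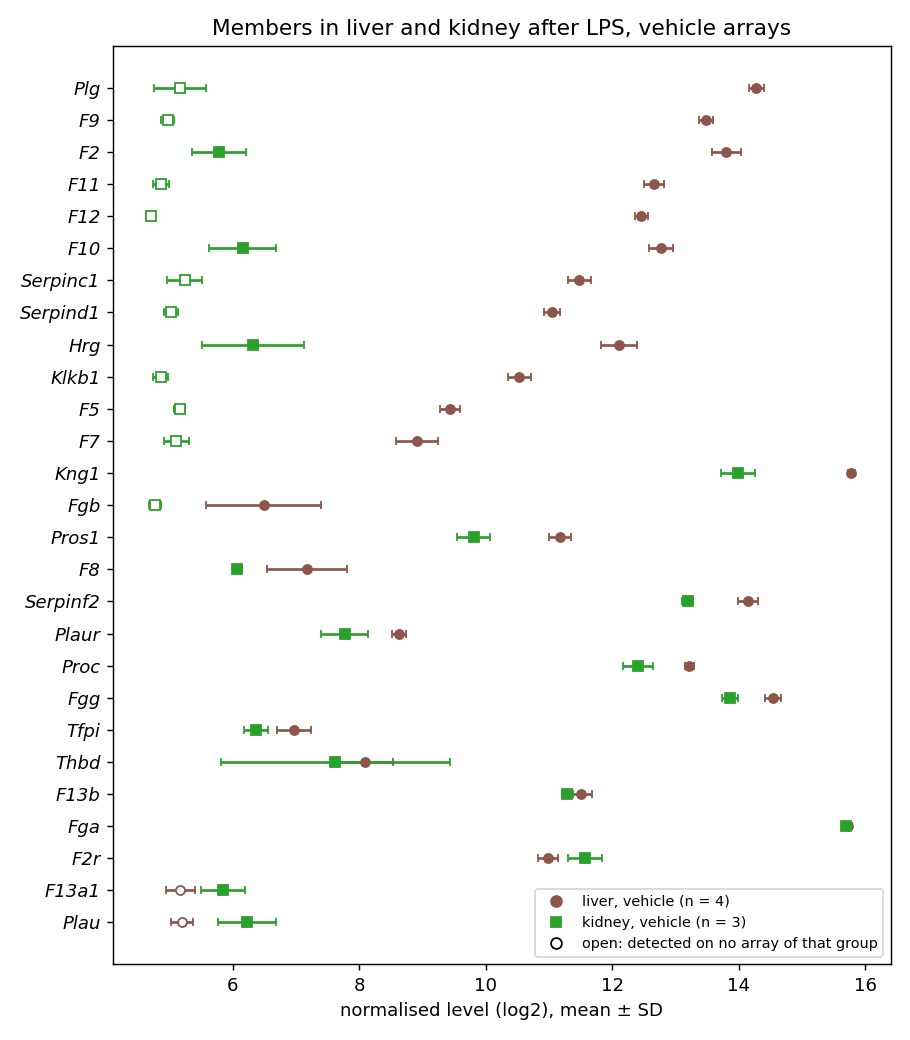
Normalised log2 level of 27 members on the vehicle arrays of liver (circles, n = 4) and kidney (squares, n = 3), mean ± SD, ordered by the difference; open symbols mark groups in which no array detected the probe. Most members lie to the right in liver, and 1 member, Plau, passed the test as higher in kidney. Distances from an open symbol are not measured folds, and Fga lies at the top of the scale in both organs.

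In liver, prekallikrein, factor VIII and heparin cofactor II fell with modIVIg. Of the 25 measured members 3 passed against vehicle, all lower: Klkb1, F8 and Serpind1. F8 entered the 25 through the vehicle and IVIg arrays alone, so the filter favoured a lower value for it in each count below. With no detection filter only Klkb1 passed (limma adjusted p = 0.0121, against 0.0588 for F8 and 0.0577 for Serpind1). Over all 7155 liver features 4.92% passed and 2.95% passed as lower. The members' median change was -0.05 and that of all features 0.04, with 17 members below 0 and 8 above. No overlap between the 4 modIVIg and the 4 vehicle arrays was seen for 5 members, all lower, against 19.8% of all features. By role, 1 of 5 members of the contact list passed, a list of F12, Klkb1, Kng1, F11 and, counted with them, Hrg. So did 1 of 5 factors of the tenase and prothrombinase steps and 1 of 6 measured anticoagulants. None of the 4 measured fibrin genes, 3 fibrinolysis genes, F7 or F2r did, with limma adjusted p above the threshold in each case.

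Klkb1 encodes plasma prekallikrein, which factor XIIa activates on negatively charged surfaces and which cuts kininogen to release bradykinin. The 4 vehicle arrays read 10.06, 10.48, 10.42 and 10.21. The IVIg arrays read 9.98, 10.53, 9.91 and 10.02, and the modIVIg arrays 8.87, 9.26, 9.41 and 9.03. All modIVIg arrays lay below all 8 others, and the IVIg and vehicle arrays overlapped. The change against vehicle was -1.15 ± 0.17 (SE), a fold of 0.45 with a 95% interval of -1.52 to -0.78 on the log2 scale (limma adjusted p = 0.00697). Against IVIg it was -0.97 ± 0.17 (limma adjusted p = 0.025). Its call against vehicle held in 23 of 23 alternative settings, with adjusted p from 0.000918 to 0.0287, and its call against IVIg in 16 of 23.

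F8 encodes factor VIII, the cofactor of factor IXa. The vehicle arrays read 6.41, 7.74, 6.79 and 6.45, the IVIg arrays 7.11, 7.05, 7.02 and 6.24, and the modIVIg arrays 5.67, 4.87, 5.59 and 5.79. The probe was detected on 3 of 4 vehicle, 3 of 4 IVIg and 0 of 4 modIVIg arrays, and the modIVIg arrays lay below all others. The fitted change was -1.37 ± 0.31 (SE; limma adjusted p = 0.0297), and with the modIVIg level only a bound the fall was at least 1.49-fold. Against IVIg the difference of -1.38 ± 0.31 had a limma adjusted p of 0.0524 and did not pass. The other 2 F8 probes were too dim to be kept. F8 passed the detection filter through the vehicle and IVIg arrays alone, and without that filter its limma adjusted p was 0.0588.

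Of the 6 sinusoidal endothelial markers measured beside F8, 5 were lower with modIVIg and 1 passed, Clec4g at -1.36 ± 0.31 (limma adjusted p = 0.0295). Their summed level was 11.17 to 11.80 on vehicle arrays, 11.03 to 11.88 on IVIg arrays and 10.42 to 11.25 on modIVIg arrays. Of the 3 measured general endothelial markers 2 were higher with modIVIg and 1 lower, and none passed. Of the 5 measured Kupffer cell markers 4 were lower with modIVIg and 3 passed, Vsig4, Timd4 and Clec4f. The list's summed level was 10.06 to 11.09 with vehicle, 9.62 to 11.07 with IVIg and 9.44 to 10.91 with modIVIg. With IVIg 4 of these 5 were lower than with vehicle too, and none passed. All 3 measured red cell markers were lower with modIVIg and Slc4a1 passed (-1.72 ± 0.39, limma adjusted p = 0.0308). Aqp1, listed as a proximal tubule marker, passed as well (-0.73 ± 0.15, 0.0219). Of these markers Timd4 was detected on 4 of 12 liver arrays, Slc4a1 on 7 and Vsig4 on 8. Timd4 read 6.48 to 6.94 with vehicle and 5.72 to 5.94 with modIVIg, and Slc4a1 7.08 to 8.09 and 4.97 to 6.23. The modIVIg levels were thus near background, so these changes are not measured folds. As with F8, the detection filter favoured calls in this direction. The part of these cells in the F8 value was not tested.

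Serpind1 encodes heparin cofactor II, a thrombin inhibitor. The vehicle arrays read 10.69, 11.02, 10.86 and 10.81, the IVIg arrays 10.77, 10.95, 10.87 and 10.54, and the modIVIg arrays 10.42, 10.07, 10.47 and 9.91. The modIVIg arrays were again below all others. The change against vehicle was -0.63 ± 0.15 (SE), a fold of 0.647 (limma adjusted p = 0.0379), and against IVIg -0.57 ± 0.15 (limma adjusted p = 0.0879). All 10 hepatocyte markers were lower with modIVIg than with vehicle, none past the threshold, and their summed level was 18.46 to 18.52 with vehicle and 18.37 to 18.42 with modIVIg. That sum is set by probes near the top of the scale, such as Apoa1 (15.67 to 15.78), so its closeness does not show equal levels. Cps1, further from the top, read 13.76 to 14.31 with vehicle and 13.24 to 13.76 with modIVIg. The part of hepatocytes in the Klkb1 and Serpind1 values was not tested.

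The calls of F8 and Serpind1 were at the edge of the threshold. Leaving out vehicle replicate 2 or 3, or any of the 4 modIVIg arrays, ended both, with limma adjusted p from 0.0537 to 0.0701 for F8 and from 0.0518 to 0.112 for Serpind1. Serpind1 also lost its call without vehicle replicate 4 (0.0722) or IVIg replicate 1 (0.0515). The authors' deposited log2 values gave -0.56 ± 0.16 for F8 (limma adjusted p = 0.0542) and -0.60 ± 0.13 for Serpind1 (0.0264).

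**Figure D2:**
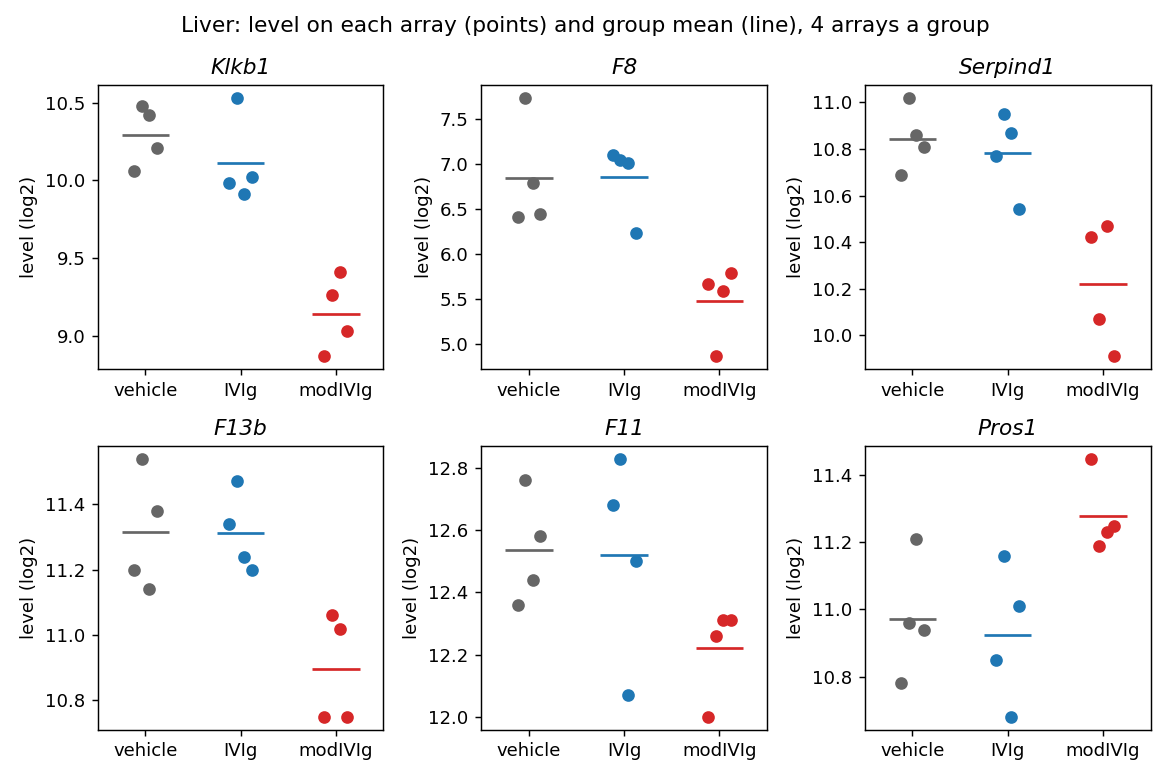
Level (log2) of 6 members on each liver array by group, with 4 points and a line at the mean in each group. The modIVIg arrays lie below all vehicle and IVIg arrays for Klkb1, F8, Serpind1 and F13b, below all vehicle arrays for F11, and above all IVIg arrays for Pros1.

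F13b and F11 were also lower on every modIVIg than on every vehicle array without passing. F13b read 11.20, 11.54, 11.14 and 11.38 with vehicle, 11.34, 11.47, 11.24 and 11.20 with IVIg and 10.75, 11.06, 11.02 and 10.75 with modIVIg, a change of -0.42 ± 0.13 (limma adjusted p = 0.0859). F11, the factor that activates factor IX and a paralog of Klkb1, read 12.36, 12.76, 12.44 and 12.58 with vehicle. It read 12.68, 12.83, 12.07 and 12.50 with IVIg and 12, 12.26, 12.31 and 12.31 with modIVIg. The F11 change was -0.32 ± 0.17 (limma adjusted p = 0.261), and its other 2 probes gave -0.39 ± 0.19 and -0.42 ± 0.37. Klkb1 and F11 start at nearby places on chromosome 8, as the coordinates above show.

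F7 and Pros1 had an unadjusted p under 0.05 and overlapping groups. F7 read 8.38, 8.80, 8.99 and 8.26 with vehicle, 8.47, 8.57, 8.46 and 7.90 with IVIg and 8.67, 7.88, 7.98 and 7.90 with modIVIg, a change of -0.50 ± 0.23 (limma adjusted p = 0.197). Pros1, the cofactor of activated protein C, read 10.78, 10.96, 11.21 and 10.94 with vehicle. It read 10.85, 11.16, 10.68 and 11.01 with IVIg and 11.45, 11.19, 11.23 and 11.25 with modIVIg. Its change was 0.31 ± 0.14 against vehicle (limma adjusted p = 0.191) and 0.36 ± 0.14 against IVIg (0.218).

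Changes in the plasmin system were small. Serpinf2, the main plasmin inhibitor, read 14.11, 13.95, 14.40 and 14.09 with vehicle and 14.51, 14.36, 14.07 and 14.35 with modIVIg, a change of 0.19 ± 0.14. Plg read 14.23, 14.14, 14.48 and 14.34 with vehicle, 14.33, 14.25, 14.23 and 14.31 with IVIg and 14.59, 14.40, 14.35 and 14.40 with modIVIg. Its modIVIg arrays overlapped the vehicle arrays (0.13 ± 0.11) and lay just above the IVIg arrays (0.15 ± 0.11, limma adjusted p = 0.54). The fibrinogen chains Fga and Fgg changed by -0.01 ± 0.09 and -0.00 ± 0.14 against vehicle, and Kng1 by -0.01 ± 0.09. For Fga and Kng1 the probe was near the top of the scale in every group.

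The remaining measured members moved by -0.36 (Tfpi) to 0.39 (Fgb) against vehicle with overlapping groups. The Tfpi probe was detected on 8 and the Fgb probe on 6 of 12 liver arrays, so both values rest partly on undetected readings. F2 changed by 0.16 ± 0.15, F9 by 0.11 ± 0.12, F10 by -0.10 ± 0.17, F12 by 0.01 ± 0.11 and F5 by -0.12 ± 0.24. Probes of 1 gene did not always move alike. The main Serpinc1 probe changed by -0.03 ± 0.18, while its second probe was lower on every modIVIg than on every vehicle array (-0.44 ± 0.15, limma adjusted p = 0.111 over all probes). The second Hrg probe changed by -0.64 ± 0.22 (0.111) against 0.01 ± 0.20 for the main one, and the second Proc probe by -0.36 ± 0.18 (0.234) against -0.05 ± 0.12. For Tfpi the second kept probe, which stood for the gene in kidney and between organs, changed by -0.02 ± 0.21 against -0.36 for the main one.

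**Figure D3:**
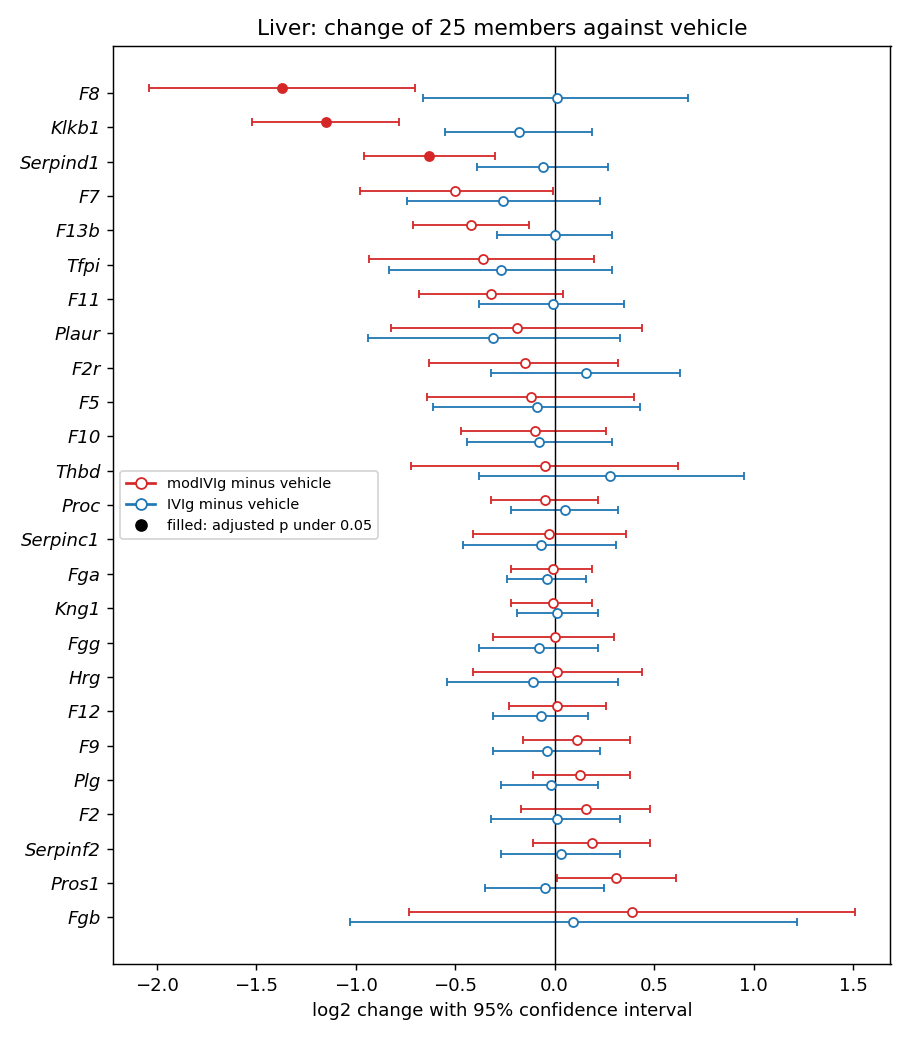
Log2 change of 25 members in liver against vehicle with 95% confidence intervals, for modIVIg (red) and IVIg (blue); filled points have an adjusted p under 0.05. F8, Klkb1 and Serpind1 lie lowest with modIVIg, and no member passed with IVIg, where the changes ran from -0.31 (Plaur) to 0.28 (Thbd).

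No member passed in liver for IVIg without the modification. Against vehicle 0 of 25 members passed, 0% of all 7155 features passed in limma, and 128 features but 0 members had an unadjusted p under 0.05. The groups overlapped for all 25. The lowest by limma's statistic were F7 (-0.26 ± 0.23), Klkb1 (-0.18 ± 0.17) and Plaur (-0.31 ± 0.29). Plaur read 8.21, 8.30, 8.46 and 8.25 with vehicle and 8.05, 8.73, 7.03 and 8.19 with IVIg, with the lowest value on IVIg replicate 3. The highest were Thbd (0.28 ± 0.31), F2r (0.16 ± 0.22) and Proc (0.05 ± 0.12). Thbd, the thrombin-binding cofactor of protein C activation, read 8.01, 8.19, 7.70 and 7.15 with vehicle and 7.82, 8.99, 7.66 and 7.72 with IVIg. F2r read 10.60, 10.98, 10.69 and 10.84 with vehicle and 10.86, 10.77, 11.64 and 10.47 with IVIg, with the highest value on IVIg replicate 3. Proc read 13.24, 13.15, 13.10 and 13.06 with vehicle and 12.99, 13.25, 13.27 and 13.23 with IVIg. The 95% interval of the IVIg change was -0.55 to 0.19 for Klkb1, -0.66 to 0.67 for F8 and -0.39 to 0.27 for Serpind1.

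Set against IVIg, modIVIg lowered Klkb1, 1 of 25 members, where 1.09% of all features passed. The groups did not overlap for 6 members, against 9.64% of all features: Klkb1, F8, Serpind1 and F13b were lower and Pros1 and Plg higher. F9 followed Pros1 and Plg by limma's statistic, with 13.53, 13.21, 13.44 and 13.33 on IVIg arrays and 13.76, 13.44, 13.46 and 13.46 on modIVIg arrays (0.15 ± 0.12). The comparisons with vehicle and with IVIg share the modIVIg arrays, so their values for a member are not independent. Of 23 measured genes in a list of other coagulation genes (38 listed, among them Serping1, Apoh and Ggcx) 0 passed in any of the 3 liver comparisons.

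In kidney 0 of 16 measured members passed in any of the 3 comparisons, where 0% of all 8544 features passed in limma in each (0% for modIVIg against vehicle, 0% for IVIg against vehicle and 0% for modIVIg against IVIg). An unadjusted p under 0.05 was reached by 226 features and 2 members for modIVIg against vehicle, by 116 and 0 for IVIg against vehicle, and by 325 and 1 for modIVIg against IVIg.

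The 2 members for modIVIg against vehicle were F10 and F13a1. These 2 of 16 had every modIVIg array above every vehicle array, where 5.24% of all features had groups that did not overlap. F10 read 6.61, 5.68 and 6.81 with vehicle, 6.95, 6.46, 6.18 and 7.45 with IVIg and 7.29, 7.07, 7.62 and 7.59 with modIVIg, a change of 1.03 ± 0.34 (limma adjusted p = 0.997). F13a1, the catalytic factor XIII subunit that macrophages and platelets carry, read 5.91, 5.66 and 6.47 with vehicle. It read 6.65, 6.10, 7.50 and 5.56 with IVIg and 7.40, 7.01, 7.06 and 7.24 with modIVIg, a change of 1.16 ± 0.39 (limma adjusted p = 0.997). F13a1 was detected on 1 of 3 vehicle, 2 of 4 IVIg and 4 of 4 modIVIg arrays, and F10 on 2 of 3, 3 of 4 and 4 of 4. Both vehicle levels thus rest partly on undetected values, and neither change is a measured fold. Plaur came next, with 7.97, 7.74 and 8.46 on vehicle arrays, 8.17, 8.39, 6.83 and 9.40 on IVIg arrays and 8.30, 9.12, 8.89 and 9.46 on modIVIg arrays (0.88 ± 0.51). Cd14, listed as a monocyte marker, read 12.88 to 14.26 with vehicle and 13.72 to 14.60 with modIVIg, and 8.11 to 13.92 with IVIg. It was the 1 monocyte marker of 5 that was measured. Ccr2 and Ms4a6c had a probe but were detected on no kidney array, so Cd14 alone does not show monocyte content. Of 9 listed adipocyte markers 8 had a probe and 5 were measured, and the summed level of the list was 9.13 to 13.15 with vehicle, 8.28 to 9.68 with IVIg and 10.25 to 12.39 with modIVIg. The part of either in these values was not tested. With the replicate number as a block the changes were 0.88 ± 0.27 for F10 and 1.30 ± 0.32 for F13a1, with a limma adjusted p of 0.727 for both.

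F8 was the lowest member by limma's statistic in both modIVIg comparisons of the kidney. It read 6.35, 6.29 and 6.19 with vehicle, 6.41, 6.54, 6.82 and 6.72 with IVIg and 5.84, 5.67, 6.25 and 6.49 with modIVIg. The IVIg arrays lay above the vehicle arrays (0.35 ± 0.20), 1 of 16 members without overlap against 1.7% of all features, and the modIVIg arrays overlapped both groups (-0.21 ± 0.20 against vehicle, -0.56 ± 0.19 against IVIg, limma adjusted p = 1 for the latter). Within same-numbered arrays, a pairing the labels do not state, modIVIg was below IVIg in 4 of 4 pairs. With the replicate number as a block the difference was -0.56 ± 0.15 (limma adjusted p = 0.35). F8 was named for being lowest in this comparison, so the pairs re-read the same values and are not separate support. The probe was detected on 2 of 3 vehicle, 4 of 4 IVIg and 1 of 4 modIVIg arrays.

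Whether the modIVIg change differed between the organs was tested for the 14 members measured in both. None passed, where 0.104% of all 6739 features did, and 2 members had an unadjusted p under 0.05. The liver-minus-kidney difference of the change was -1.37 ± 0.41 for F8 (limma adjusted p = 0.335) and -1.04 ± 0.35 for F10 (0.408). Klkb1 and Serpind1 could not enter, since kidney did not detect them.

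Kidney arrays separated by replicate number in some members. Thbd read 8.84 and 9.06 on vehicle replicates 1 and 2 and 5.65 on replicate 3. It read 9.15, 9.23, 5.62 and 5.32 on the IVIg arrays and 8.53, 9.57, 5.15 and 5.11 on the modIVIg arrays. The probe was detected on all 6 arrays of replicates 1 and 2 and on none of the other 5, whatever the treatment. Hrg had the same division, with 7.11, 7.01 and 5.46 on vehicle, 7.01, 6.64, 5.24 and 5.31 on IVIg and 6.11, 6.92, 5.66 and 5.54 on modIVIg arrays.

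Of the 16 measured members 2 had replicates 1 and 2 fully apart from 3 and 4, against 32.7% of all kidney features. A probe of Kng1 that was not the brightest shared the pattern, at 10.84 to 11.48 on replicates 1 and 2 and 8.81 to 9.41 on the rest. The brightest Kng1 probe read 13.75 to 14.49 with the replicate numbers overlapping, so 2 probes of 1 gene differed in this respect on the same arrays. The modIVIg change of Thbd against vehicle, -0.76 ± 1.46, was smaller than its error. In liver 2 of 25 members split the same way, against 0.727% of features. Fgb read 6.91 to 7.59 on replicates 1 and 2 and 5.33 to 6.14 on replicates 3 and 4, and Serpinc1 10.84 to 11.16 and 11.35 to 11.61. The labels give no batch behind these numbers.

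**Figure D4:**
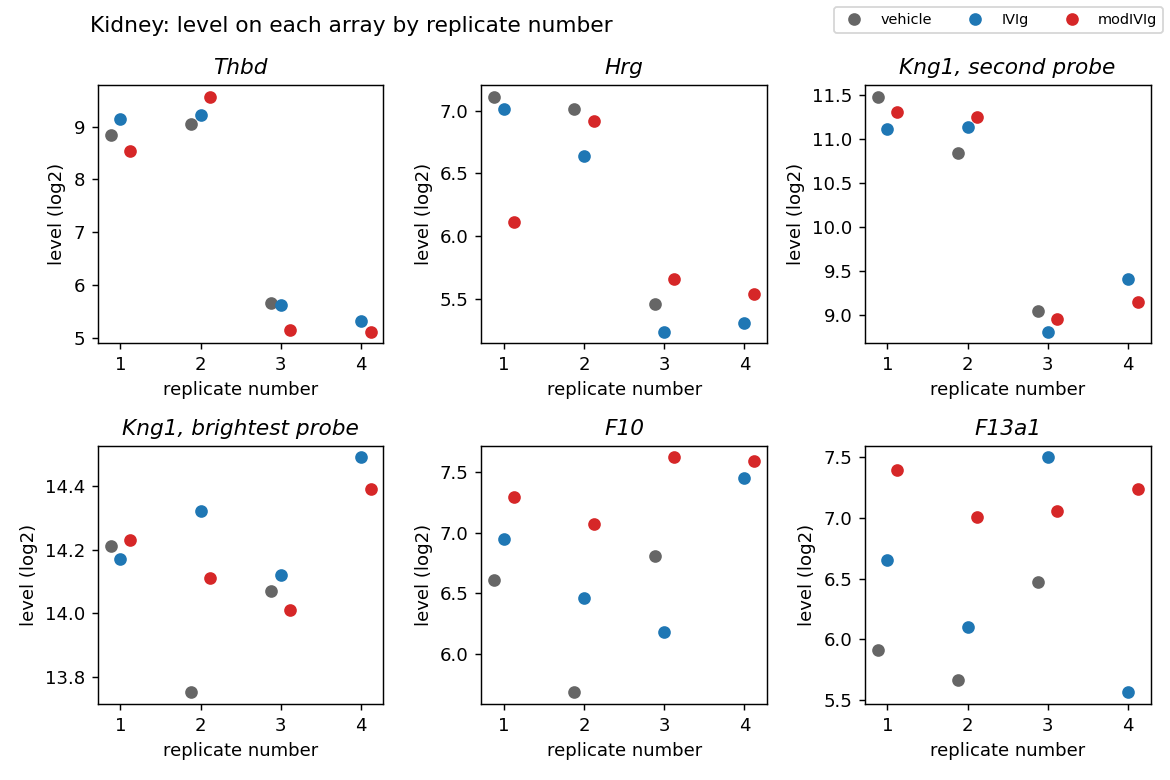
Level (log2) on each of 11 kidney arrays by replicate number, coloured by treatment, for Thbd, Hrg, 2 probes of Kng1, F10 and F13a1. Thbd, Hrg and the second Kng1 probe are lower on replicates 3 and 4 than on 1 and 2 in every treatment, and F10 and F13a1 overlap.

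One array was low for the fibrinogen chains in kidney. Fga read 15.58, 15.56 and 15.72 with vehicle, 15.68, 15.58, 14.45 and 15.72 with IVIg and 15.75, 15.66, 15.71 and 15.71 with modIVIg. Fgg read 14.03, 13.84 and 13.84 with vehicle, 13.94, 13.91, 12.70 and 13.88 with IVIg and 13.98, 14.04, 13.69 and 13.70 with modIVIg. The low value in both was IVIg replicate 3, the array with the low Cd14 level. The IVIg change against vehicle was -0.27 ± 0.27 for Fga and -0.30 ± 0.28 for Fgg, and 0.04 ± 0.11 and 0.01 ± 0.14 without that array. On that same array Plau read 7.97, the highest of all kidney arrays, against 6.66, 6.42 and 7.40 on the other IVIg arrays, 6.81, 5.84 and 6.69 on vehicle and 6.52, 6.92, 7.27 and 7.17 on modIVIg arrays.

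Kininogen, protein C and alpha-2-antiplasmin were among the named kidney members. Kng1 read 14.21, 13.75 and 14.07 with vehicle and 14.17, 14.32, 14.12 and 14.49 with IVIg (0.27 ± 0.16). Proc read 12.77, 12.72, 12.68 and 12.63 with IVIg and 12.54, 12.74, 12.55 and 12.15 with modIVIg (-0.20 ± 0.15). Serpinf2 read 13.35, 13.34, 13.31 and 13.61 with IVIg and 13.08, 13.17, 13.33 and 13.47 with modIVIg (-0.14 ± 0.13). These differences lay within the spread of the arrays. F13b, Pros1, Tfpi and F2r changed by 0.05 ± 0.19, 0.32 ± 0.24, 0.18 ± 0.23 and -0.02 ± 0.29 with modIVIg against vehicle.

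In blood 8 members were measured, and Vwf and F13a1, both carried by platelets, are described first. The fibrinogen chains, Plg, F2 and the contact factors were not kept, and all 10 hepatocyte markers were undetected. Vwf, whose product tethers platelets to the vessel wall and carries factor VIII, read 11.11, 10.57 and 12.87 with vehicle, 12.76, 12.10 and 12.67 with IVIg and 12.26 on the modIVIg array. F13a1 read 9.59, 9.96 and 9.96 with vehicle, 10.08, 9.95 and 10.08 with IVIg and 9.93 with modIVIg. The summed level of the 7 platelet markers was 14.37 to 15.37 with vehicle, 14.85 to 15.48 with IVIg and 14.66 with modIVIg. Of 6 general endothelial markers 5 were detected on no blood array.

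None of the 8 members passed for IVIg against vehicle, where 0% of 3975 features passed in limma and 45 features but 0 members had an unadjusted p under 0.05. Vwf differed most (0.99 ± 0.55), with vehicle replicates 1 and 2 below all IVIg arrays and replicate 3 above them. F5, which platelets carry, read 6.22, 5.48 and 6.96 with vehicle and 6.95, 6.41 and 7.28 with IVIg (0.66 ± 0.43). F2r, the thrombin receptor, read 6.87, 7.20 and 7.62 with vehicle and 7.56, 7.47 and 7.65 with IVIg (0.33 ± 0.33). The lowest was Plaur, at 6.02, 6.92 and 6.23 with vehicle and 5.85, 6.39 and 5.74 with IVIg (-0.39 ± 0.37). It was detected on 3 of 3 vehicle and 1 of 3 IVIg arrays. Pros1 read 7.63, 6.60 and 7.04 with vehicle and 7.13, 7.10 and 7.34 with IVIg (0.10 ± 0.35). F10 ranged from 7.29 to 9.60 with vehicle and 8.58 to 9.44 with IVIg, and Tfpi from 5.12 to 5.96 and 5.59 to 6.38. Vehicle and IVIg arrays overlapped for all 8. Tfpi was detected on 2 of 3 arrays in each of these groups. The single modIVIg array read 6.50 for F5, 8.37 for F10, 6.37 for Plaur, 6.77 for Pros1, 5.67 for Tfpi and 6.81 for F2r, with no test. Of these only F10 was detected on that array, so the other values are background readings and not levels.

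**Figure D5:**
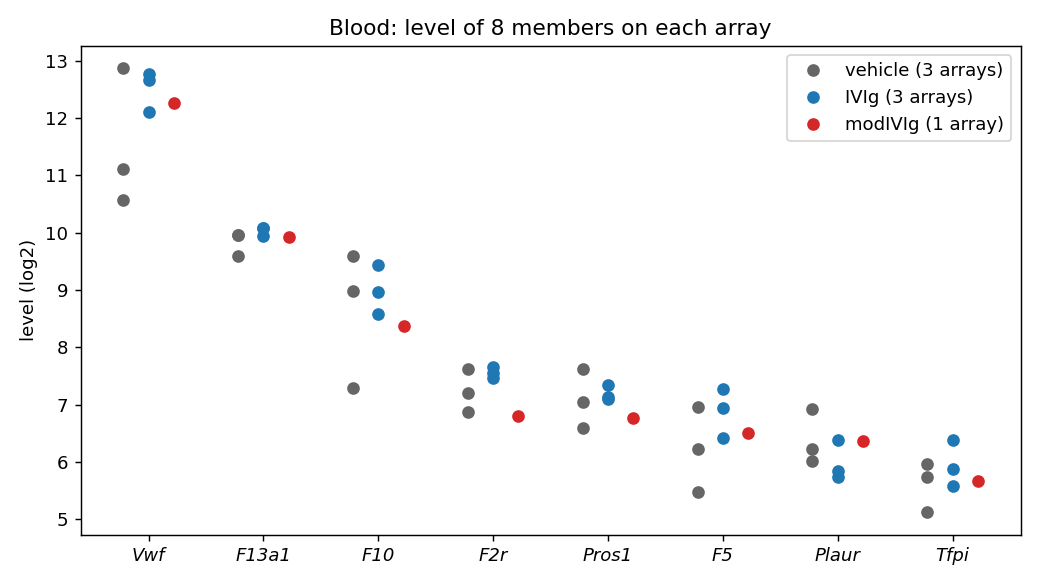
Level (log2) of the 8 members measured in blood on each of 7 arrays, by treatment (3 vehicle, 3 IVIg and 1 modIVIg array). Vehicle and IVIg arrays overlap for every member. On the modIVIg array only Vwf, F13a1 and F10 were detected. Vwf spans 10.57 to 12.87, while F13a1 stays within 9.59 to 10.08.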

How the data were processed

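RNA of liver, kidney and circulating leukocytes was measured on Illumina mouse BeadChips, 31 arrays with 25697 probes. Groups and replicate numbers come from the sample titles. Bead intensity values were deposited unnormalised; GenomeStudio 1.9.0, lumi and limma are named in the submitters' processing notes without roles. Each probe also has a detection p-value, deposited beside its intensity. The authors' deposited log2 values, normalised per organ per the series' design text, served as an alternative. The blank blood array was left out (30 of 31 used).

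For every organ apart, intensities went through background correction and quantile normalisation (neqc, offset 16) in limma 3.58.1 under R 4.3.3. Probes with a detection p under 0.01 on at least 4 liver, 3 kidney or 2 blood arrays were kept, and the kept probe of highest mean stood for its gene. Of all probes 23978 had 1 symbol and 1719 none. Groups were compared with lmFit and eBayes and Benjamini-Hochberg adjustment over all features of the organ, with 3 groups sharing 1 spread; liver and kidney were normalised together for comparisons between organs. Values after ± are standard errors unless SD is written. The scripts were tested on simulated data.

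The members and gene lists were chosen with earlier results of these data known. Named are members past the threshold, those with separate liver groups, and the 3 highest and 3 lowest by limma's statistic per organ and comparison. In kidney, same-numbered arrays deviated together in 10 of 10 pairs (r from 0.587 to 0.849), and the pairing comes from the data, not the labels. The number of arrays limits the precision.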

Additional observations from a re-analysis of the deposited data

Results flagged for a closer look

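Within each group of 4 arrays, an array far from the other 3 was looked for in every measured member with Dixon's test. It marked 12 of 107 groups, and chance marks about 1 in 20. In liver modIVIg replicate 1, 5 members stood apart: F7 at 8.67 (others 7.88 to 7.98), F9 at 13.76 (13.44 to 13.46), F10 at 12.88 (12.41 to 12.46), F12 at 12.52 (12.24 to 12.27) and, in the other direction, F11 at 12 (12.26 to 12.31). In the liver IVIg group F8 was low on replicate 4 at 6.24 (7.02 to 7.11), Proc low on replicate 1 at 12.99 (13.23 to 13.27), and Klkb1 and Thbd high on replicate 2 at 10.53 (9.91 to 10.02) and 8.99 (7.66 to 7.82). In kidney, IVIg replicate 3 was low for Fga at 14.45 (15.58 to 15.72) and Fgg at 12.70 (13.88 to 13.94), and IVIg replicate 4 was high for Serpinf2 at 13.61 (13.31 to 13.35).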

How the results depend on the processing

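The count of 0 members called for IVIg against vehicle in liver and blood, and for all 3 kidney comparisons, was the same in every alternative run, with the replicate block included. The count for liver against kidney, 21, stayed between 19 and 23. For modIVIg against vehicle in liver, 3 members passed; leaving out 1 array gave 1 to 3, no detection filter gave 1 and the replicate block gave 3. Over all features that comparison gave 352 calls, and 84 to 1112 among the alternatives. For modIVIg against IVIg in liver, 1 member passed; leaving out 1 array gave 0 to 2, joint normalisation of all organs, array quality weights and the trended robust prior gave 2 each (Klkb1 and F8), and no detection filter and a fit of only the 2 groups gave 0 each. All features gave 78 calls, and 9 to 352 among the alternatives, with 180 under the replicate block. For the difference of the modIVIg change between organs, array quality weights gave 1 (F10) in place of 0, with 70 features in place of 7. The causes were not tested. No called member value changed sign. A block for replicates 1 and 2 against 3 and 4 in liver was chosen after seeing the data.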
